A study of Mus musculus with 16 samples.

Results

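The regions described here were the H3K9me3 peaks whose listed gene orientation was downstream, 7533 of the 212313 H3K9me3 peaks in the table, and they carried 5343 gene identifiers. The label was first compared with the strand of each gene. In this table it described the gene as seen from the peak and not the peak as seen from the gene: 7457 of the 7533 peaks lay beyond the 5′ end of their gene in the GENCODE M21 annotation of GRCm38, 2 lay beyond the 3′ end, 54 overlapped the gene body, and 20 had a gene that was not found in that annotation. For 7243 of the 7457 the listed distance equalled the gap between peak edge and gene start. The 8188 peaks listed as upstream lay on the opposite side, with 8037 beyond the 3′ end. All 7533 are therefore called 5′-side peaks below, after where nearly all of them lay.

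ChIP-seq was performed on whole crypt isolates of the small intestine from male C57BL/6 mice, which were either wild type (WT) or lacked Smarcad1, a chromatin remodelling ATPase, in the intestinal epithelium (KO). The deletion was driven by a Cre recombinase under the Villin promoter, so non-epithelial cells carried over with the crypts kept the gene, and ages were not given. The peak values used here do not show the deletion itself. H3K9me3 was profiled in 3 WT and 3 KO libraries, with 1 input library (sheared chromatin without antibody) per genotype. The ChIP libraries held 7061526 to 11830130 reads in peaks and the inputs 8452186 and 8838386, and the median peak held 23 to 38 ChIP reads per library, so that differences at peaks of this size were measured on few reads. Nothing in the labels ties a library to an animal, and p-values measure the spread between these libraries.

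H3K9me3 is a histone mark of repressed chromatin. It is written by methyltransferases such as Setdb1 and the Suv39h enzymes, is bound by heterochromatin protein 1, and is best known for silencing repeats, clustered gene families and genes of other lineages. Smarcad1 has been linked to keeping such heterochromatin in place when DNA is copied. The region 5′ of a gene holds its promoter and nearby regulatory DNA, and in the intestinal epithelium most receptor, keratin-associated and steroid-hydroxylase genes of other organs are silent.

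The central 300 bases of 7 peaks are given because the results below turn on them, on the plus strand of GRCm38 (RefSeq assembly GRCm38.p6), with each CG dinucleotide in capitals. Polm and Crkl had the peaks of smallest p among those lower in KO. Cyp2d12 had the smallest p, though not the largest difference, of the detoxification genes, and Lyz1 is the Paneth cell gene among the crypt markers. Krtap7-1 and Foxa1 were higher in KO, and AC124772.5 stood furthest above input close to a gene.
Polm, chr11:5842276-5842575: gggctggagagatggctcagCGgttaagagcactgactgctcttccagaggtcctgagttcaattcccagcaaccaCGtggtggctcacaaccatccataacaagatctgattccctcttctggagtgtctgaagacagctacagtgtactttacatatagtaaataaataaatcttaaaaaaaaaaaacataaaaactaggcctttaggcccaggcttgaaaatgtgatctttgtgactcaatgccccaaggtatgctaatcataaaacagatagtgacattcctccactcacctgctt
Crkl, chr16:17443651-17443950: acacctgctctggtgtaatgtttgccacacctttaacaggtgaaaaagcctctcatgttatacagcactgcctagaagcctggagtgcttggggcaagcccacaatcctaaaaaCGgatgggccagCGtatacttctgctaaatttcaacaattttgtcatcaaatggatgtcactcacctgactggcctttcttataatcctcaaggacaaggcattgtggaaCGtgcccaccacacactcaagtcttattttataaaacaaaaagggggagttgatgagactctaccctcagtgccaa
Cyp2d12, chr15:82553101-82553400: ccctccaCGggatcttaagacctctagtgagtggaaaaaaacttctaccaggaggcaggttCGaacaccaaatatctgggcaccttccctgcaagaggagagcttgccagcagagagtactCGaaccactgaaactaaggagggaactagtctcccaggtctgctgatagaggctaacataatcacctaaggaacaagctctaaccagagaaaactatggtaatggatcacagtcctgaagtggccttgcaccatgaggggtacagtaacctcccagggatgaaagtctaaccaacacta
Lyz1, chr10:117299101-117299400: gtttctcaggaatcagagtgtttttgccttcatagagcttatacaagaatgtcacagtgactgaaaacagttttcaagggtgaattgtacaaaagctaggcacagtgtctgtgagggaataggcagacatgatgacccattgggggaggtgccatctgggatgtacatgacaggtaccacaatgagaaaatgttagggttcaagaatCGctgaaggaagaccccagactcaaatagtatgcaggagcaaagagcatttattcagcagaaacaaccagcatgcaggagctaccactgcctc
Krtap7-1, chr16:89513476-89513775: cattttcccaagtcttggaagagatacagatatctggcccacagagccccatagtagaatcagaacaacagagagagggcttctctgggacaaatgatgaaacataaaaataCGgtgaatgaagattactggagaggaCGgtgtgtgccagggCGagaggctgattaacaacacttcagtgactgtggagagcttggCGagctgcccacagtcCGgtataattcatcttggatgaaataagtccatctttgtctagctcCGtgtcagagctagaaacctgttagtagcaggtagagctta
Foxa1, chr12:57549826-57550125: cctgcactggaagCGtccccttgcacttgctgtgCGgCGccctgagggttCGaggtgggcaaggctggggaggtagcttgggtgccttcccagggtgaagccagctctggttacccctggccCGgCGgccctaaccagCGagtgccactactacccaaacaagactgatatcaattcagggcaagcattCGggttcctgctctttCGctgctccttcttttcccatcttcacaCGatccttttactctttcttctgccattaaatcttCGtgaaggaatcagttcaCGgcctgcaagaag
AC124772.5, chr12:19044001-19044300: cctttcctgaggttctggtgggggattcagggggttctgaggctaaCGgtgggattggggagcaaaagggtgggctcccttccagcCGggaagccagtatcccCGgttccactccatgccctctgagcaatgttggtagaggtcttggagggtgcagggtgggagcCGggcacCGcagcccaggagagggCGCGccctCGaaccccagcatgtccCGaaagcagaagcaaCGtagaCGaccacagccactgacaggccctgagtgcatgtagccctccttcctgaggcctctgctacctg
These windows held 2 CG (Polm), 3 (Crkl), 3 (Cyp2d12), 1 (Lyz1), 6 (Krtap7-1), 12 (Foxa1) and 11 (AC124772.5). Over the central 300 bases of all 7533 peaks the median was 1 CG, 77.6% held at least 1 and 12.3% held at least 5. Soft-masked sequence, which marks repeats and low-complexity DNA in the assembly, filled 98.3% of the Polm window, 92.7% of the Crkl window, 73.3% of the Cyp2d12 window, 25.7% of the Lyz1 window and none of the Krtap7-1, Foxa1 and AC124772.5 windows (0% each). Windows of the other named higher peaks varied widely. The masked share was 85.3% at Olfr1231 and 73% at AC152951.2, but 15.7% at Gm28623, 11.7% at Krtap8-1, 5.67% at Gm22966 and 0% at Gm9238.

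The question of this comparison was where H3K9me3 on the 5′ side of genes changed upon loss of Smarcad1. H3K9me3 was lower in KO at 409 of the 7533 5′-side peaks (5.43%), beside 2.46% of all 212313 peaks, and higher at 14 (0.186%), beside 0.252% of all peaks, by limma on the deposited log2 read counts at an adjusted p under 0.05. The 409 lower peaks lay at 399 genes and included coding genes as different as Polm, Crkl, Slc15a1 and Cyp2d12, whereas Foxa1 and a pair of keratin-associated genes were among the 14 higher ones. Of the calls at 5′-side peaks 96.7% were lower in KO, beside 90.7% over all peaks. The log2 difference (KO minus WT) of the lower peaks ranged from -2.16 to -0.32 with a median of -0.82, and 128 reached -1 or less. That of the higher peaks ranged from 0.41 to 1.09 with a median of 0.75. All 3 KO values were below all 3 WT values in 398 of the 409 lower peaks. The lower count was 263 without WT replicate 1, and the higher count was 8 without WT replicate 3, without KO replicate 1 or without KO replicate 2.

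**Figure D1:**
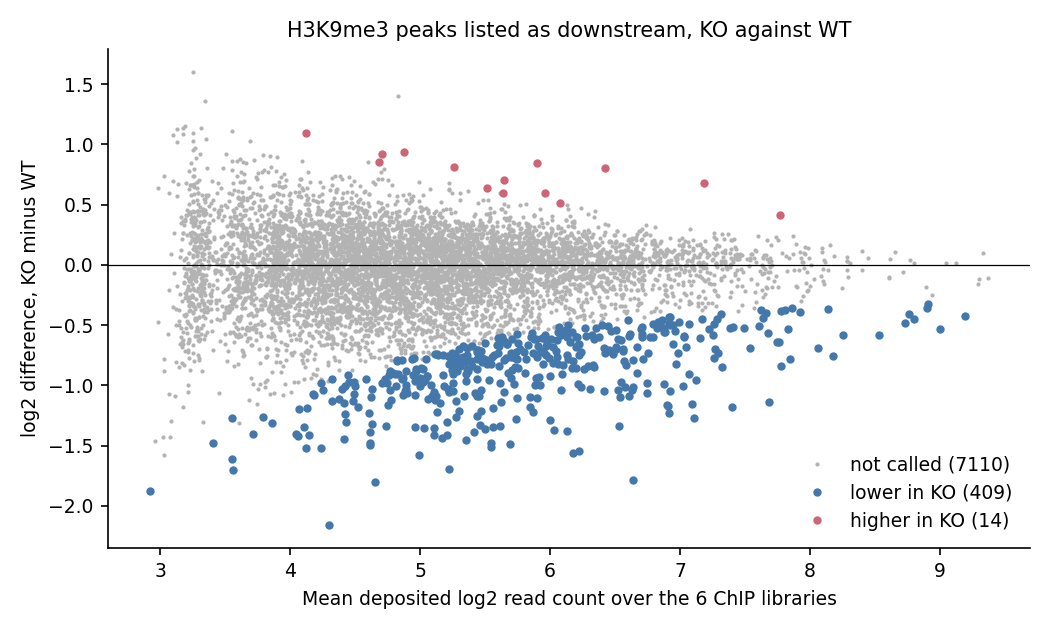
Each point is 1 of the 7533 5′-side peaks, placed by its mean deposited log2 read count over the 6 ChIP libraries (x axis) and its log2 difference, KO minus WT (y axis). The 409 peaks lower in KO (blue) run down to -2.16, the 14 higher peaks (red) up to 1.09, and the 7110 peaks that were not called (grey) surround 0.

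Most 5′-side peaks, 7110 of 7533, were not called in either direction. The median log2 difference of all 5′-side peaks was -0.02, beside 0.03 over all peaks, and its sign turned with 5 reads added to the recovered reads (0.00901). Differences of both signs enter this median, so it does not measure how far single peaks moved. Of the 5′-side peaks 53.3% had a negative difference, beside 45.3% over all peaks. The median log2 read count of the 5′-side peaks was 5.02, 4.96 and 4.98 in the WT libraries and 4.89, 4.91 and 4.92 in the KO libraries (4.99 ± 0.03 and 4.90 ± 0.02, SD, n = 3 each). All 3 KO medians were thus below all 3 WT medians. Over all peaks the same medians were 5.03 ± 0.02 in both genotypes, which the matching of distributions by the authors set to be nearly equal. By class of peak, the share lower in KO was 5.39% of the 8188 peaks listed as upstream (the 3′ side of genes), 3.54% of the 61764 peaks that overlapped a gene and 1.63% of the 134828 peaks with no gene within 5 kb. The shares on the 5′ and the 3′ side were nearly equal, and no test of the difference between classes was made. Outside the 5 kb limit, 29 of 755 peaks (3.84%) whose nearest annotated gene start was 5 to 5.5 kb away were lower in KO, beside 38 of 649 (5.86%) at 4.5 to 5 kb.

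The 10 named peaks with the smallest p among those lower in KO belonged to 7 coding genes, a processed pseudogene, a lincRNA gene and an antisense RNA gene. Polm is the gene of DNA polymerase mu, which takes part in the joining of broken DNA ends. Its peak lay at chr11:5840101-5844750, 2085 bp from the gene, in sequence that overlapped no annotated gene. It had log2 read counts of 7.61, 7.47 and 7.50 in WT and 5.51, 5.96 and 5.75 in KO. WT libraries were high and KO libraries low, with a difference of -1.79 ± 0.13 (SE) on the log2 scale (limma, adjusted p = 6.08e-14). At Crkl, which encodes an adaptor of tyrosine kinase signalling, a peak of 7200 bp (chr16:17440201-17447400) had 8.33, 8.09 and 8.34 in WT and 7.03, 7.24 and 7.06 in KO, a difference of -1.14 ± 0.10 (limma, adjusted p = 2.03e-11). All Crkl values in KO were well below the lowest WT value. The peak of Scd4, a stearoyl-CoA desaturase gene, had 7.76, 7.96 and 8.25 in WT and 6.76, 6.93 and 6.74 in KO (-1.18 ± 0.11, limma, adjusted p = 1.59e-10). Elp6, a gene of the Elongator complex, had 6.98, 6.93 and 7.08 in WT and 5.15, 5.63 and 5.59 in KO (-1.54 ± 0.15, limma, adjusted p = 2.54e-10). Since these 10 peaks were selected to have no overlap between genotypes, their separation is no further result. At Polm and Elp6 the KO libraries spread more widely (SD 0.23 and 0.27) than the WT libraries (0.07 at both), whereas at Scd4 (0.10 in KO, 0.25 in WT) and Crkl (0.12 in KO, 0.14 in WT) they spread less.

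A transporter, a transcription regulator and a lectin followed. Abcb4, a phospholipid transporter gene known from bile formation, had log2 read counts of 7.56, 7.41 and 7.61 in WT and 6.41, 6.47 and 6.01 in KO (-1.23 ± 0.12, limma, adjusted p = 7.98e-10). Patz1, a zinc finger transcription regulator gene, had 7.38, 7.54 and 7.57 in WT and 6.35, 6.46 and 6.16 in KO (-1.17 ± 0.12, limma, adjusted p = 1.15e-09). At Lgals9, the galectin-9 gene, the values were 7.72, 7.68 and 7.83 in WT and 5.97, 6.64 and 6.79 in KO, with KO replicate 1 the lowest (-1.27 ± 0.13, limma, adjusted p = 1.78e-09). The noncoding genes in this group were Gm16233 (-1.16 ± 0.12), AC157652.2 (-1.56 ± 0.16) and AC098839.3 (-1.34 ± 0.14). All 10 peaks were called under each of 12 alternative fits, with another scaling, other weights, a filter, a replicate block or 1 library left out.

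**Figure D2:**
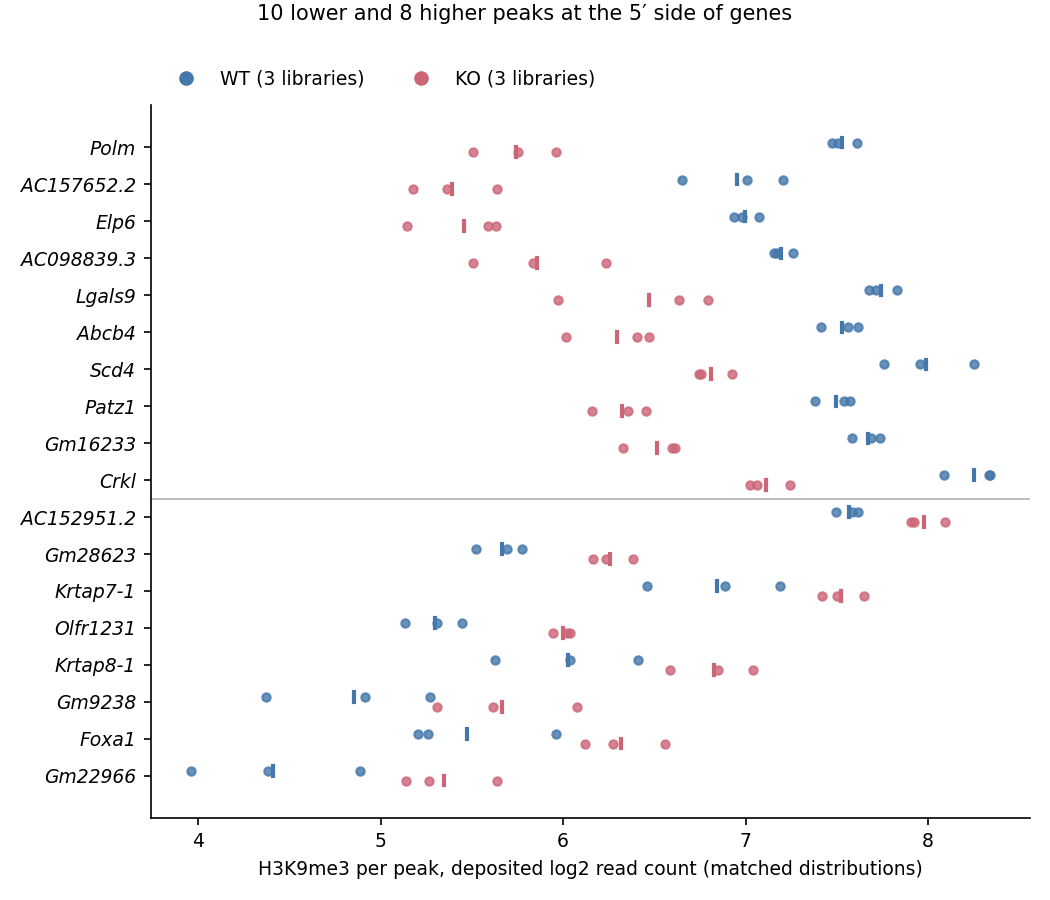
The deposited log2 read count (x axis) of the 10 lower peaks above the line and the 8 higher peaks under it, with 1 point per library and a bar at the mean of the 3 WT (blue) or 3 KO (red) libraries. The Polm peak had the widest separation, from a mean of 7.53 in WT to 5.74 in KO, and for Gm9238 the lowest KO value (5.31) lay just above the highest WT value (5.27).

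The 14 peaks higher in KO had 4 coding genes. Krtap7-1 and Krtap8-1 encode keratin-associated proteins of hair and are neighbours on chromosome 16. The Krtap7-1 peak (chr16:89510551-89516700) had log2 read counts of 7.19, 6.88 and 6.46 in WT and 7.50, 7.65 and 7.42 in KO, a difference of 0.68 ± 0.13 (limma, adjusted p = 0.000293). The Krtap8-1 peak had 6.04, 6.41 and 5.63 in WT and 6.85, 6.59 and 7.04 in KO (0.80 ± 0.15, limma, adjusted p = 0.000453). Foxa1 encodes a forkhead factor of endodermal epithelia, and its peak 1935 bp from the gene (chr12:57548851-57551100) had 5.96, 5.26 and 5.21 in WT and 6.28, 6.56 and 6.12 in KO (0.84 ± 0.18, limma, adjusted p = 0.00143). The call held under all 12 alternative fits for these 3 genes, and the 8 named higher peaks were selected to have no overlap between genotypes.

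Olfr1231, an olfactory receptor gene, had log2 read counts of 5.14, 5.44 and 5.31 in WT and 6.04, 6.02 and 5.95 in KO (0.70 ± 0.17, limma, adjusted p = 0.00921), and adjusted p was 0.0722 without WT replicate 1. The processed pseudogene AC152951.2 differed by 0.41 ± 0.10 (limma, adjusted p = 0.00628), with adjusted p = 0.0883 without KO replicate 2. The other named peaks, at Gm22966 (0.94 ± 0.24), Gm28623 (0.60 ± 0.16) and Gm9238 (0.81 ± 0.22), each lost the call when 1 of 2 to 4 libraries was left out. For Gm22966 these were WT replicate 3 (limma, adjusted p = 0.174) and KO replicate 1 (0.150). For Gm28623 they were WT replicate 1 (limma, adjusted p = 0.119), KO replicate 1 (0.115) and KO replicate 3 (0.0599), and for Gm9238 WT replicates 1 (0.269) and 2 (0.0536) and KO replicates 2 (0.295) and 3 (0.0629). Among the 14 higher peaks 4 lay at snoRNA genes and 2 at snRNA genes, all of them named by prediction only.

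Peaks lower in KO differed from the peaks that were not called in several measures that moved with the call. Their median width was 1800 bp against 1200 bp, their median read count over the ChIP libraries 58.3 against 30.2, their GC content 43.1% against 40.4%, their CpG density 7.78 against 5.24 per kb and their soft-masked share 53.3% against 43.7%. Per length the difference in reads was smaller, with 31.1 against 24.4 reads per kb. Lower peaks of the whole table had a like width (1950 bp), read count (58.3) and CpG density (7.41 per kb). The share lower in KO was larger at higher read levels, from 8 of 1363 5′-side peaks (0.587%) under a mean log2 count of 4 to 52 of 346 at 7 or more. Among all other peaks of the table, most of which had no gene within 5 kb, the shares in the same classes ran from 0.277% to 6.76%. In each of the 5 classes of level the share at 5′-side peaks was above that of all other peaks, with 2.75% against 1.29% between 4 and 5, 7.19% against 2.96% between 5 and 6, and 11.9% against 4.32% between 6 and 7. Peaks on the 3′ side of genes had shares of 0.428%, 2.34%, 6.61%, 12.7% and 17.2% in the 5 classes, lower than the 5′ side in the first 3 and higher in the last 2. The part of width, reads and base composition in the calls was not tested.

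By distance to the gene, H3K9me3 was lower in KO at 66 of 1508 peaks within 1 kb (4.38%), at 133 of 2389 between 1 and 2.5 kb (5.57%) and at 210 of 3636 between 2.5 and 5 kb (5.78%). It was higher at 2, 7 and 5 peaks in these bins. The median log2 difference was 0.00060, -0.03 and -0.03 in the same order. The bins had like read levels, with median counts of 31, 31 and 31.8 reads, and median widths of 1200, 1200 and 1350 bp. In WT the library medians averaged 4.96 ± 0.05, 4.97 ± 0.04 and 5.02 ± 0.01 (SD, n = 3) and in KO 4.90 ± 0.02, 4.88 ± 0.01 and 4.90 ± 0.02. From 1 kb outwards all 3 KO medians were below all 3 WT medians, whereas within 1 kb the genotypes overlapped, with 4.91 in WT replicate 2 and 4.92 in KO replicate 3. In steps of 0.5 kb the share lower in KO went up and down between 3.54% (0.5 to 1 kb) and 7.08% (3.5 to 4 kb) without a steady course. With distances taken to the centre of the peak, the share within 1 kb was 2.55% of 510 peaks, and those of the outer bins were 4.62% of 2058 and 5.31% of 3766. The centres of the other 1199 peaks, 101 of them lower in KO, lay beyond 5 kb and dropped out of these bins.

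**Figure D3:**
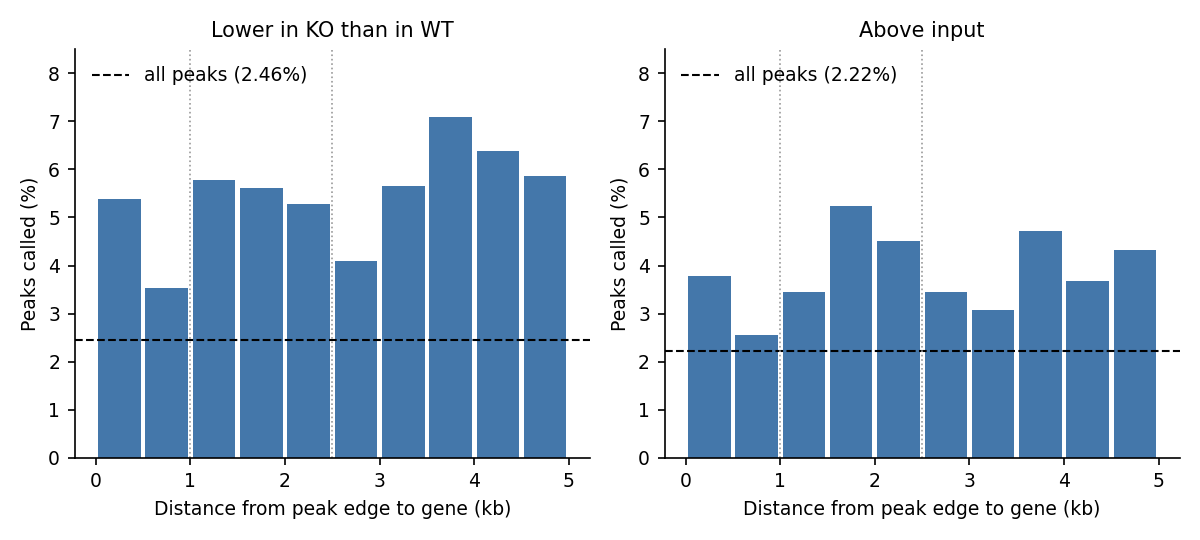
Share of 5′-side peaks called (y axis, %) in steps of 0.5 kb from peak edge to gene (x axis), for peaks lower in KO (left) and above input (right), with the share over all 212313 peaks as a dashed line and the edges of the bins at 1 and 2.5 kb as dotted lines. The share lower in KO lies between 3.54% and 7.08% in all 10 steps, above the 2.46% of all peaks.

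Close to the gene start, 309 peaks ended within 250 bp of it and 14 of these (4.53%) were lower in KO, a share near the 5.43% of all 5′-side peaks. They included Cyp21a1, a steroid hydroxylase gene, with a log2 difference of -1.002 ± 0.228 (limma, adjusted p = 0.00427), Edc3, a gene of mRNA decapping (-1.13 ± 0.33, limma, adjusted p = 0.0448), and Mir7217. The Mir7217 peak, 88 bp from the miRNA gene, overlapped another annotated gene. It had log2 read counts of 6.14, 5.44 and 6.87 in WT and 5.76, 4.59 and 4.55 in KO (-1.19 ± 0.24, limma, adjusted p = 0.000992). KO replicate 1 was above WT replicate 2, and without WT replicate 3 the adjusted p was 0.103. The other 11 peaks of this kind belonged to predicted genes, pseudogenes and unclassified transcripts. Edc3 and Cyp21a1 were named here after their values were seen.

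Among gene types with over 100 peaks, coding genes had the largest share of calls. Of the 2167 5′-side peaks at coding genes, 210 (9.69%) were lower in KO and 4 were higher, with a median log2 difference of -0.09. On the 3′ side of coding genes 216 of 2469 (8.75%) were lower. Processed pseudogenes had 80 lower of 2188 (3.66%), lincRNA genes 37 of 795 (4.65%), unprocessed pseudogenes 15 of 627 (2.39%), snRNA genes 15 of 307 (4.89%), miRNA genes 11 of 221 (4.98%) and snoRNA genes 9 of 264 (3.41%). Immunoglobulin V genes, which are used only in B cells, had 177 peaks and 0 calls by limma in either direction, with 1 lower and 4 higher at an unadjusted p under 0.05 and 0 by voom weights. Their peaks were shallow, with a median of 22.0 reads against 33.0 at coding genes. Differences between gene types were not tested, and read level differed along with them.

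Genes grouped by name gave a similar contrast. The lists were chosen with earlier results of these data known, so their counts are a description. Detoxification and retinoid or steroid metabolism genes (cytochromes P450, aldo-keto reductases, carboxylesterases and their kin) had 53 peaks at 41 genes, of which 14 (26.4%) were lower in KO and none was higher, with a median log2 difference of -0.43. Cyp2d12, a xenobiotic-metabolizing cytochrome, had log2 read counts of 7.49, 7.32 and 7.31 in WT and 6.70, 6.40 and 6.06 in KO at a peak 358 bp from the gene (-0.99 ± 0.13, limma, adjusted p = 4.86e-07). Others were Cyp11b2, the aldosterone synthase gene (-0.69 ± 0.09, limma, adjusted p = 5.23e-07), Cyp8b1, a hydroxylase of bile acid synthesis (-0.86 ± 0.19, limma, adjusted p = 0.00378), Akr1b7, an aldo-keto reductase (-0.72 ± 0.14, limma, adjusted p = 0.000604), and Fmo1, a flavin monooxygenase (-0.73 ± 0.19, limma, adjusted p = 0.0199). The 14 comprised 8 cytochromes, pseudogenes included, 4 aldo-keto reductases or short-chain dehydrogenases (Akr1b7, Akr1c18, Akr1c21 and Dhrs7), Fmo1 and the carboxylesterase gene Ces5a. Cyp21a1 and its pseudogene Cyp21a2-ps are near copies of each other, and the authors kept only reads with a mapping quality of at least 20, so reads that could not be placed between them may be missing. Elsewhere in the table, 47 of 334 peaks at genes of this list (14.1%) were lower.

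Solute carriers had 20 peaks, of which 4 (20.0%) were lower and none higher, with a median of -0.20, beside 9.20% elsewhere. They were Slc15a1, the peptide transporter gene of the small intestine, with 7.68, 7.43 and 7.70 in WT and 6.59, 6.72 and 6.62 in KO (-0.96 ± 0.11, limma, adjusted p = 4.44e-08), Slc35f2 (-0.94), and the amino acid transporter genes Slc7a10 (-0.56) and Slc7a13 (-0.60). The Slc15a1 peak also overlapped another annotated gene. Zinc finger genes are a family in which H3K9me3 is well known. They had 55 peaks, of which 5 (9.09%) were lower and none higher, with a median of -0.21. The share lower was 5.90% elsewhere, and 9.69% at 5′-side peaks of coding genes of all kinds. The 5 lower zinc finger peaks were at Zfp397 (-1.05 ± 0.15, limma, adjusted p = 1.64e-06), Zfp810 (-0.90), Zfp445 (-0.75), Zfp873 (-0.58) and Zfp11 (-0.41). The Zfp397 values were 6.61, 6.96 and 7.23 in WT and 5.91, 6.04 and 5.72 in KO.

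Receptor families of the nose and the immune system had shares under that of all peaks. Olfactory receptor genes had 724 peaks, of which 8 (1.10%) were lower and 1 was higher, beside 1.08% lower elsewhere. Olfr521 had the smallest p of these, with 8.20, 7.99 and 8.00 in WT and 7.31, 7.41 and 7.56 in KO (-0.64 ± 0.10, limma, adjusted p = 1.36e-05). Differences were larger at others, such as Olfr97 (-0.98) and Olfr61 (-0.90). Vomeronasal and taste receptor genes had 2 lower of 285 (0.702%, beside 0.884% elsewhere), at Vmn1r-ps25 (-0.60 ± 0.15, limma, adjusted p = 0.00976) and Vmn2r91 (-0.61). The Vmn1r-ps25 call was lost without WT replicate 1 (adjusted p = 0.101), WT replicate 3 (0.0535), KO replicate 2 (0.0893) or KO replicate 3 (0.0914). Antigen receptor segments had 3 lower of 330 (0.909%, beside 0 of 432 elsewhere), at Trav5-4 (-0.73 ± 0.14, limma, adjusted p = 0.000401), Trbv28 (-0.92) and Trav7-3 (-0.62). Cadherin and adhesion genes, among them the clustered protocadherins, had 21 peaks and 0 calls by limma, 0 at an unadjusted p under 0.05 and 0 by voom weights, and elsewhere 4 of their 4979 peaks (0.0803%) were lower and 7 higher. Small RNA genes had 6 lower of 68 (8.82%, beside 1.83% elsewhere), with a pair of peaks at Mir7217 and 1 each at Rnu1b1, n-R5s156, Mir5118 and Mir6361. Genes with predicted or clone-based names, 4654 peaks in all, had 182 lower (3.91%, beside 3.84% elsewhere) and 10 higher.

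**Figure D4:**
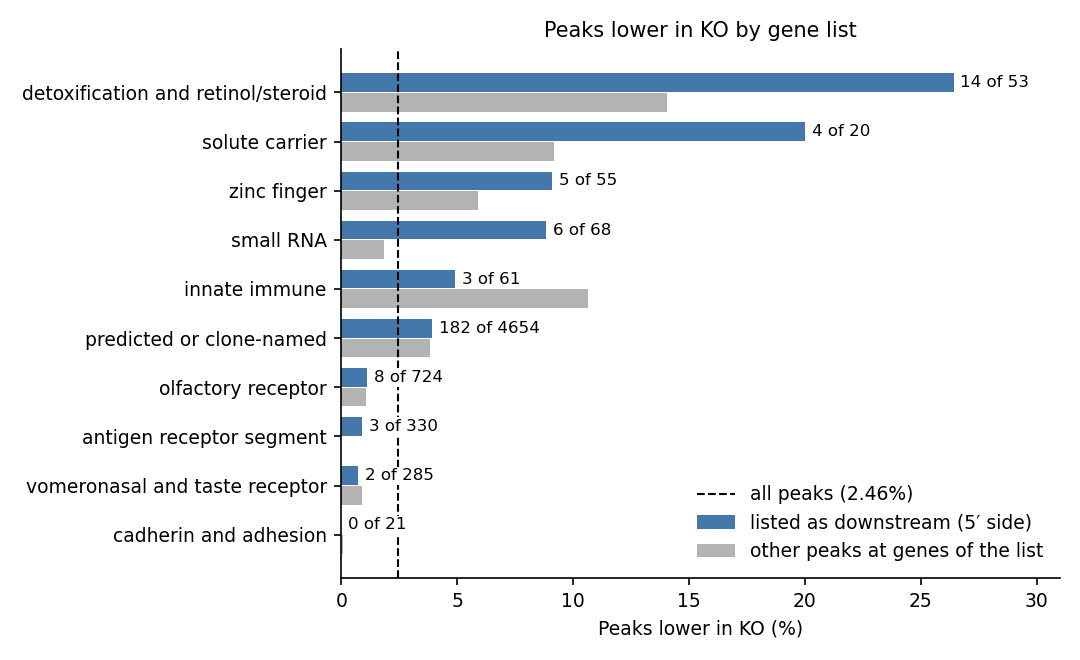
Share of peaks lower in KO (x axis, %) for the 10 gene lists with at least 20 5′-side peaks, with 5′-side peaks in blue and all other peaks at genes of the same list in grey, and the share of all peaks (2.46%) as a dashed line. Detoxification genes stand highest with 14 of 53 peaks, and the olfactory, vomeronasal, antigen receptor and cadherin lists lie under the dashed line.

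The innate immune list, whose genes were grouped by name, had 61 peaks, of which 3 (4.92%) were lower and none higher. That share was close to the 5.43% of all 5′-side peaks. Elsewhere in the table, 42 of 394 peaks at genes of this list (10.7%) were lower and 5 were higher. The 3 lower 5′-side peaks were at Lyz1, Trim71 (-0.95 ± 0.24, limma, adjusted p = 0.0153) and Ifi214 (-0.95 ± 0.26, limma, adjusted p = 0.0261). Lyz1 encodes lysozyme, an antibacterial enzyme of Paneth cells, and its peak (chr10:117297751-117300750) lay 4883 bp from the gene. It had log2 read counts of 7.06, 7.15 and 7.05 in WT and 6.25, 6.61 and 6.83 in KO, without overlap (-0.52 ± 0.13, limma, adjusted p = 0.0108). Without KO replicate 1, the lowest library, the difference was -0.37 (limma, adjusted p = 0.180), and without WT replicate 2 it was -0.49 (limma, adjusted p = 0.0768). Other genes that the study had described as rising in KO had few 5′-side peaks, and the list is not independent of these mice. Of its 17 genes only Lyz1 and Mbd1, a methyl-CpG binding protein gene, had any, and elsewhere in the table the genes of this list had 51 peaks, of which 1 was lower in KO and 11 were higher. The 3 Mbd1 peaks had log2 differences of -0.02, -0.40 and -0.29, none of which passed the test (limma, adjusted p = 0.986, 0.640 and 0.837).

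Among 40 genes used as markers of crypt epithelium, Lyz1 and Axin2 had 5′-side peaks, and elsewhere 2 of the 19 peaks of this list were lower and 1 was higher. Axin2, a Wnt target gene, had 2 peaks with differences of -0.38 ± 0.24 and -0.79 ± 0.33 (limma, adjusted p = 0.627 and 0.297). The genotypes overlapped at both, with 4.89, 4.31 and 3.88 in WT against 3.47, 3.95 and 3.29 in KO at the nearer peak. None of the 5 genes on a list of gained H3K9me3 had a 5′-side peak, whereas elsewhere 33 of their 39 peaks were higher in KO. That list was chosen on these libraries. Of 23 genes of the H3K9 methylation machinery only Atf7ip, a cofactor of Setdb1, had a 5′-side peak, and elsewhere 4 of the 8 peaks of the list were lower. The Atf7ip peak read 5.55, 5.37 and 5.75 in WT and 4.95, 5.504 and 5.29 in KO (-0.31 ± 0.19, limma, adjusted p = 0.621).

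Most genes had a single 5′-side peak (3670 of 5343), 1261 had 2, and 15 tied for the most with 5. Of the 399 genes with a lower peak, 366 had all their 5′-side peaks lower, 357 of them genes with 1 peak. In 39 genes with 2 peaks at least 1 was lower, and in 9 both were. No gene had a lower and a higher peak. Prodh, the proline dehydrogenase gene, was the coding gene among the 9 (named after its values were seen), with adjoining peaks that differed by -1.10 ± 0.16 and -1.05 ± 0.21 (limma, adjusted p = 2.86e-06 and 0.000919). The 3 genes with 5 peaks that come earliest in the alphabet, AC079644.17, AC079644.6 and AC102582.2, had no called peak among 15, with differences from -0.55 to 0.50. Adjoining peaks of 1 gene share sequence context and are not independent.

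Against input, 291 of the 7533 5′-side peaks (3.86%) were above input over the 6 ChIP libraries, beside 2.22% of all peaks, and 3 (0.0398%) were below, beside 0.0584%, by limma on log2 of scaled reads. The reads were scaled to all reads in peaks, so a ratio says how a peak stands against the mean of all peaks, and that scale sets the median near 0. The median log2 ratio of ChIP over input was -0.02 at 5′-side peaks and -0.06 over all peaks. Per distance bin 47 of 1508 (3.12%), 105 of 2389 (4.395%) and 139 of 3636 (3.82%) were above input, and the 3 peaks below it were at Zfp62, Gm1330 and Gm28190. Peaks above input were wide (median 2550 bp) and CpG-dense (10.9 per kb), with 62.1% soft-masked sequence. At the 10 lower peaks of smallest p, the log2 ratio over input, which was fitted on the same ChIP libraries, ranged from -0.07 to 0.85. Crkl (0.85, limma, adjusted p = 0.00159) and Abcb4 (0.61, limma, adjusted p = 0.00771) passed the test and the other 8 did not, with -0.07 at Polm (limma, adjusted p = 0.949) and 0.06 at Elp6 (limma, adjusted p = 0.957). This fit took WT and KO libraries together, so a peak high in WT and low in KO can give a ratio near 0. Unscaled reads at Polm were 222, 171 and 206 in WT beside 84 in the WT input. In KO they were 32, 73 and 54 beside 96 in the KO input. At Elp6 they were 141, 118 and 153 in WT beside 53, and 25, 58 and 48 in KO beside 71. Of the 14 higher peaks 0 were called above input in the same fit of both genotypes. The log2 ratio was -0.11 at Foxa1 (limma, adjusted p = 0.900), -0.17 at Krtap8-1 (limma, adjusted p = 0.816) and 0.04 at Krtap7-1 (limma, adjusted p = 0.958). Unprocessed pseudogenes had the largest share of peaks above input among gene types with over 100 peaks, 55 of 627 (8.77%).

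The strongest ratios were at small peaks with few input reads. AC124772.5, a lincRNA gene 106 bp from its peak, had 37, 18 and 26 reads in WT and 19, 20 and 19 in KO, beside 2 and 5 reads in the WT and KO input. The fitted log2 ratio was 2.24 ± 0.33 (limma, adjusted p = 1.23e-05), and the pooled reads gave a ratio of 5.58 with a 95% exact interval of 2.64 to 14.1 that covers counting error only. AC167977.4 led between 1 and 2.5 kb (log2 ratio 2.34, pooled ratio 6.30, interval 2.62 to 19.8) and Rnu1b2, a U1 snRNA gene, between 2.5 and 5 kb (log2 ratio 2.25, pooled ratio 7.52, interval 2.85 to 28.1). None of the 3 differed between genotypes by the test (limma, adjusted p = 0.857, 0.935 and 0.972). The U1 genes are also near copies of each other, so reads that could not be placed may be missing there too. The 3 Mbd1 peaks stood above input by log2 ratios of 1.97, 1.90 and 1.76 (limma, adjusted p = 7.74e-08, 0.00263 and 0.00577), and their sequence was 98.7% to 100% soft-masked.

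The genotype call and the input can be set side by side per library. At the 409 lower peaks the median log2 ratio over the input of the same genotype was 0.68, 0.61 and 0.64 in WT and -0.38, -0.26 and -0.33 in KO, and at the 14 higher peaks it was -0.42, -0.47 and -0.67 in WT and 0.20, 0.33 and 0.28 in KO. Thus the lower peaks were above the average ratio in all WT libraries and under it in all KO libraries, and the higher peaks the reverse. These values are a description, since the same ChIP reads chose the peaks. At the 7110 other peaks the medians lay between -0.03 and 0.02. Input reads at the lower peaks had a median of 42.0 in WT and 44.0 in KO.

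**Figure D5:**
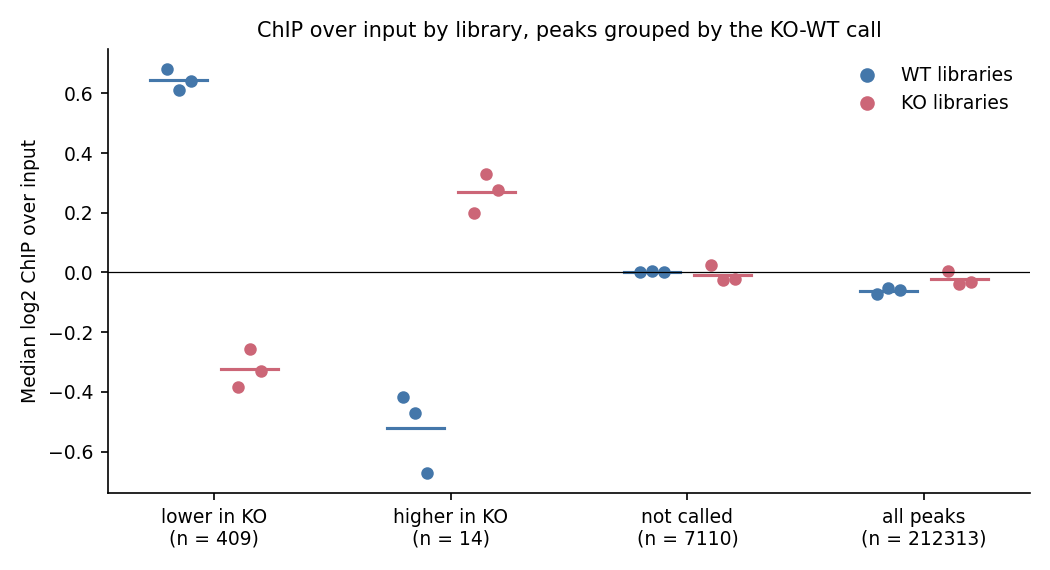
Median log2 ratio of ChIP over the input of the same genotype (y axis) for 5′-side peaks that were lower, higher or not called and for all peaks (x axis), with 1 point per library and a line at the mean of the 3 WT (blue) or KO (red) libraries. Lower peaks average 0.64 in WT and -0.32 in KO, and the peaks that were not called lie near 0 in both.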

How the data were processed

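H3K9me3 ChIP and input libraries were trimmed (Trim Galore 0.4.4) and aligned to GRCm38 (Bowtie2 2.3.2), reads with a mapping quality under 20 were left out, and peaks were called with MACS and quantified in SeqMonk by the authors. The deposited H3K9me3 values are log2 read counts per peak, which the authors corrected for library size and matched in distribution between libraries, so a shift shared by all peaks of a library would not be seen. The deposited H3K9me2 values are a signal per region, used here only for the overlap of positions and the ratio of the genotypes within regions. The 8 standard deviation columns were not used, and nor were 2 tables of the authors' own edgeR comparison.

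The 3 KO libraries were compared with the 3 WT libraries on the deposited log2 values of all 212313 peaks with limma 3.58.1 (R 4.3.3, genotype only, trended variance) and Benjamini-Hochberg adjustment, with calls at an adjusted p under 0.05. For the comparison with input, reads were recovered from the ordered levels of each ChIP library (exact for at least 99.4% of peaks, within 0.01 on the log2 scale for 100%, with 0 and 1 read not separable), 1 read was added, libraries were scaled to all reads in peaks, and limma was fitted to 6 ChIP and 2 input libraries with genotype and ChIP as terms. The scripts were tested on simulated data. p-values measure the spread between these samples, and counting intervals (95%, exact) cover counting error only.

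Named peaks were, with 1 peak per gene, the 10 lower and 8 higher called peaks of smallest p whose KO and WT values did not overlap, for each gene list its called peak with the lowest p, the peak highest over input per distance bin, all peaks at genes of 4 short lists, and the 3 genes with most peaks. Other genes of the lists are given by their counts with examples. The peaks and lists were chosen with earlier results of these data known. Alternatives were another scaling, voom weights, 5 added reads, filters on low values, a replicate block, each library left out, stricter calls, 1 peak per gene, the side of the gene, and distances to the peak centre.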

Additional observations from a re-analysis of the deposited data

How the results depend on the processing

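At the 5′-side peaks, the count lower in KO (409) ranged from 263 (without WT replicate 1) to 378 with 1 library left out, and the count higher (14) from 8 (without WT replicate 3, KO replicate 1 or KO replicate 2) to 13. The median log2 difference (-0.02) ranged from -0.03 to -0.02 in these fits, and was 0.00901 with 5 reads added to recovered reads. At an adjusted p under 0.01 there were 271 lower and 5 higher peaks, with a log2 difference of at least 1 in size 128 and 1, and with 1 peak per gene 384 and 8. The other scalings, voom weights, added reads and the filter gave 378 to 429 lower and 12 to 18 higher peaks. Restricting to peaks beyond the 5′ end, an alternative chosen after seeing the data, gave 406 and 14. Only 2 peaks lay beyond the 3′ end, with 0 calls by limma and by voom and 0 at an unadjusted p under 0.05 between genotypes (median -0.15), and against input 0 calls by limma and by voom and 1 at an unadjusted p under 0.05 (median 0.53).

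Against input, the count above (291) was 232 to 284 with 1 library left out and the count below (3) 1 to 3, with 1 below without KO replicate 1. At an adjusted p under 0.01 there were 178 above and 0 below, of the 3 that limma called at 0.05 and the 4 of voom weights. Voom weights gave 210 above, 5 added reads 236 and at least 10 input reads 238. Median-of-ratios size factors gave 339 above, 1 below and a median of 0.0291 in place of -0.02. By peak centre the shares lower in KO were 2.55% within 1 kb and 4.62% from 1 to 2.5 kb.

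With the replicate number as a block, 404 peaks were lower and 13 higher. Deviations of libraries with the same number correlated at -0.0147, 0.00898 and -0.0144 over all peaks. With few reads per peak, counting noise may hide a pairing, so these values cannot decide whether the numbers pair the libraries. Depth limits single peaks: with a median of 23 to 38 reads per peak and library, small differences were not detectable.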

Other observations

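H3K9me2 had been profiled in crypts of the same genotypes, and its values per region can be set beside the H3K9me3 calls. Of the 409 5′-side peaks lower in H3K9me3 in KO, 51 (12.5%) overlapped a listed H3K9me2 region, beside 10 of 14 higher peaks (71.4%) and 4460 of 7110 peaks that were not called (62.7%). Over all peaks the shares were 14.7% of 5226 lower and 69.6% of 206551 not called peaks. Within the regions, the median log2 ratio of H3K9me2 (KO over WT) was 0.03 at the 51 regions of lower peaks, 0.00085 at the 10 of higher peaks and 0.01 at the 2644 regions of the others. The difference between these groups of peaks was not tested, and they also differed in width and reads.

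By chromosome, the share of 5′-side peaks lower in KO was 13.1% on chromosome 18 (13 of 99), 12% on chromosome 19 (15 of 125), 11.9% on chromosome 16 (21 of 177) and 11.6% on chromosome 11 (25 of 215), beside 2.73%, 5.48%, 2.54% and 4.36% of all peaks on these chromosomes. On chromosome 12, which holds the immunoglobulin heavy chain locus, it was 1.64% (10 of 608), beside 1.504% of all peaks. Of the 893 5′-side peaks with at least 90% soft-masked sequence, 60 (6.72%) were above input, beside 3.86% of all 5′-side peaks, 5.68% of the 22394 peaks of the whole table with that much soft-masked sequence and 2.22% of all peaks.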
